A study of Mus musculus with 36 samples.

Results

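The genes described here are 10 liver genes known as targets of pulsatile growth hormone: Elovl3, Cyp4a12a, Cyp4a12b, Cyp7b1, Cyp2d9, Hsd3b5, Mup20, Mup3, Slco1a1 and Selenbp2. They were chosen by symbol from knowledge of male-biased liver expression, with earlier results of these data known. All 10 were found among the 78239 gene IDs of the count files. RNA was sequenced from heart, kidney and liver of wild-type (WT) male C57BL/6NCrl mice, an inbred strain, killed at 8 weeks, 10 weeks or 12 weeks. Each of the 9 combinations of tissue and age had 4 libraries. The mice were bought at 6 weeks, kept 2 or 3 to a cage on chow with a light and dark cycle, and anesthetized with ketamine and xylazine before tissue was taken. Each age is a separate set of animals, all animals are male, and growth hormone itself was not among the measurements used here. The question put to the data was whether these genes differed between the ages in liver, with kidney beside it.

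In rodents the pituitary of males releases growth hormone in well separated pulses, whereas that of females releases it more continuously. In hepatocytes each pulse activates the kinase JAK2 and the transcription factor STAT5B, which together with factors such as HNF4A keep male-biased genes on and female-biased genes low. BCL6 represses female-biased genes in the male liver, CUX2 represses male-biased genes in the female liver, androgens shape the pulses by way of the brain, and some of the genes also follow the liver clock.

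Positions are given on GRCm39 as the GENCODE vM39 annotation lists them, and all 10 are protein-coding genes. Elovl3 lies at chr19:46119917-46124133 on the plus strand, and 18.3% of its exon bases are shared with Pitx3 on the other strand. Cyp4a12a at chr4:115156243-115190012 and Cyp4a12b at chr4:115268820-115296235 are neighbours on the plus strand. Mup20 at chr4:61968464-61972395 lies, on the minus strand, within the span that this annotation gives to Mup3, chr4:61947447-62005620. Cyp7b1 is at chr3:18117411-18297740 (minus), Hsd3b5 at chr3:98525941-98553068 (minus) and Selenbp2 at chr3:94600863-94611720 (plus). Cyp2d9 is at chr15:82317638-82341046 (plus), and 8.66% of its exon bases are shared with Gm46501 and Gm54398 on the same strand. Slco1a1 is at chr6:141853007-141892690 (minus).

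Reads were counted where they mapped to a single place, so genes with close copies can lose or exchange reads. Of all windows of 150 bases in the canonical transcript, 25.7% in Cyp4a12a and 25.9% in Cyp4a12b were found letter for letter in the other gene. For Mup20 the share was 55.6%, with Gm70526 and Mup-ps19, and for Selenbp2 7.01%, with Selenbp1. It was 1.54% for Cyp2d9, 1.21% for Hsd3b5, and 0 for Elovl3, Cyp7b1, Mup3 and Slco1a1. By this measure, which leaves exon overlap aside, the levels of Cyp4a12a, Cyp4a12b and Mup20 are the least certain of the 10.

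The coding sequences of Cyp4a12a and Cyp4a12b had equal lengths in all 12 coding exons and were 98.5% identical, with 23 differing bases among 1524. The stretch of 90 bases with the most differences, 7 of the 23, lies in exon 6, at chr4:115183856-115183945 in Cyp4a12a and chr4:115290109-115290198 in Cyp4a12b, both on the plus strand of GRCm39. It is shown because reads over such bases are what tells these enzymes apart, and capitals mark the bases that differ.
Cyp4a12a: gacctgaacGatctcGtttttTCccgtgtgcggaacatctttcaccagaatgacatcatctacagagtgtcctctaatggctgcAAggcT
Cyp4a12b: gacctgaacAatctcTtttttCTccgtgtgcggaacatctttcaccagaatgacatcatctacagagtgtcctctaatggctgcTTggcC

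RefSeq promoter windows on GRCm38.p6, from 250 bases before to 50 bases after the start, were at hand for 5 of the 10 genes: Selenbp2, Hsd3b5, Mup3, Slco1a1 and Cyp2d9. The other 5 were Elovl3, Cyp4a12a, Cyp4a12b, Cyp7b1 and Mup20. Each window was searched on both strands for TTCNNNGAA, the letters STAT5 factors bind, for ATTGAT, the core of sites of Onecut factors, and for AGGTCA, a unit of nuclear receptor sites. TTCNNNGAA was in none of the 5 windows and in 8.30% of all 32851 windows. Mup3 held ATTGAT in its reverse form ATCAAT 162 and 100 bases before the start, against 7.54% of all windows with a match, and Slco1a1 held TGACCT and AGGTCA 134 and 24 bases before the start, against 16.3%. These windows, chr4:62087268-62087567 and chr6:141946913-141947212, both on the minus strand, are shown with the matches in capitals because they are the only ones of the 5 with any match.
Mup3: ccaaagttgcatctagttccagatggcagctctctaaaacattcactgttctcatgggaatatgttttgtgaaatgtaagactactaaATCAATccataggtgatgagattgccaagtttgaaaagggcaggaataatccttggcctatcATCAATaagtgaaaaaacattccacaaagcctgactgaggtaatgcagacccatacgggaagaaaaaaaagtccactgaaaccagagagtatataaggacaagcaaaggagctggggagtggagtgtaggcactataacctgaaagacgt
Slco1a1: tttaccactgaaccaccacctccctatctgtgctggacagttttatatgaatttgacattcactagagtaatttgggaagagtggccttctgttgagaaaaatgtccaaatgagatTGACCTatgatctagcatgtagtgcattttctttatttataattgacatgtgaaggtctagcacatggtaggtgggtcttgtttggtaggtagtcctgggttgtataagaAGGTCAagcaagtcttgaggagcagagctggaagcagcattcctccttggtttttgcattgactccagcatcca
A match is a run of letters and not a site at which binding was measured.

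Liver libraries held 21031599 to 33637390 counted read pairs, and kidney libraries 21323021 to 32670858. Levels are given as CPM, counts per 1e6 counted pairs after scaling by edgeR's TMM factors within a tissue, in the order of replicates 1, 2, 3 and 4 unless stated otherwise. The 10 genes together took 1.03% to 2.33% of the counted pairs of a liver library and 0.0992% to 0.196% of those of a kidney library. In liver all 6 hepatocyte markers were at 306 CPM or more in every library, with Alb between 51612 and 95942 CPM, and of the 4 kidney proximal tubule markers Slc34a1 and Slc5a2 were at 0.096 CPM or below, Cubn at 0.18 CPM or below and Lrp2 at 0.24 to 1.68 CPM. The common coefficient of variation between animals was 0.206 in liver and 0.113 in kidney. A gene was called where the adjusted p of edgeR's quasi-likelihood test, corrected over all genes tested in the tissue by the Benjamini-Hochberg method, was under 0.05.

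Liver levels of all 10 genes were on average higher at 12 than at 8 weeks, but none passed the test in any comparison of ages. For Slco1a1 the direction rested on 8-week replicate 4, without which its log2 fold change was -0.076. The log2 fold changes from 8 to 12 weeks ran from 0.08 for Slco1a1 to 1.45 for Elovl3, with a median of 0.36 against -0.0039 over all 14672 genes tested. 8-week replicate 4 was the lowest of its age for 8 of the 10 genes, so their directions are not separate observations. From 8 to 10 weeks 9 of the 10 were higher, with a median of 0.20, and from 10 to 12 weeks 6 were higher and 4 lower, with a median of 0.09. The spread between mice of the same age was wide for most of the genes, as the plot of liver levels by library shows.

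**Figure D1:**
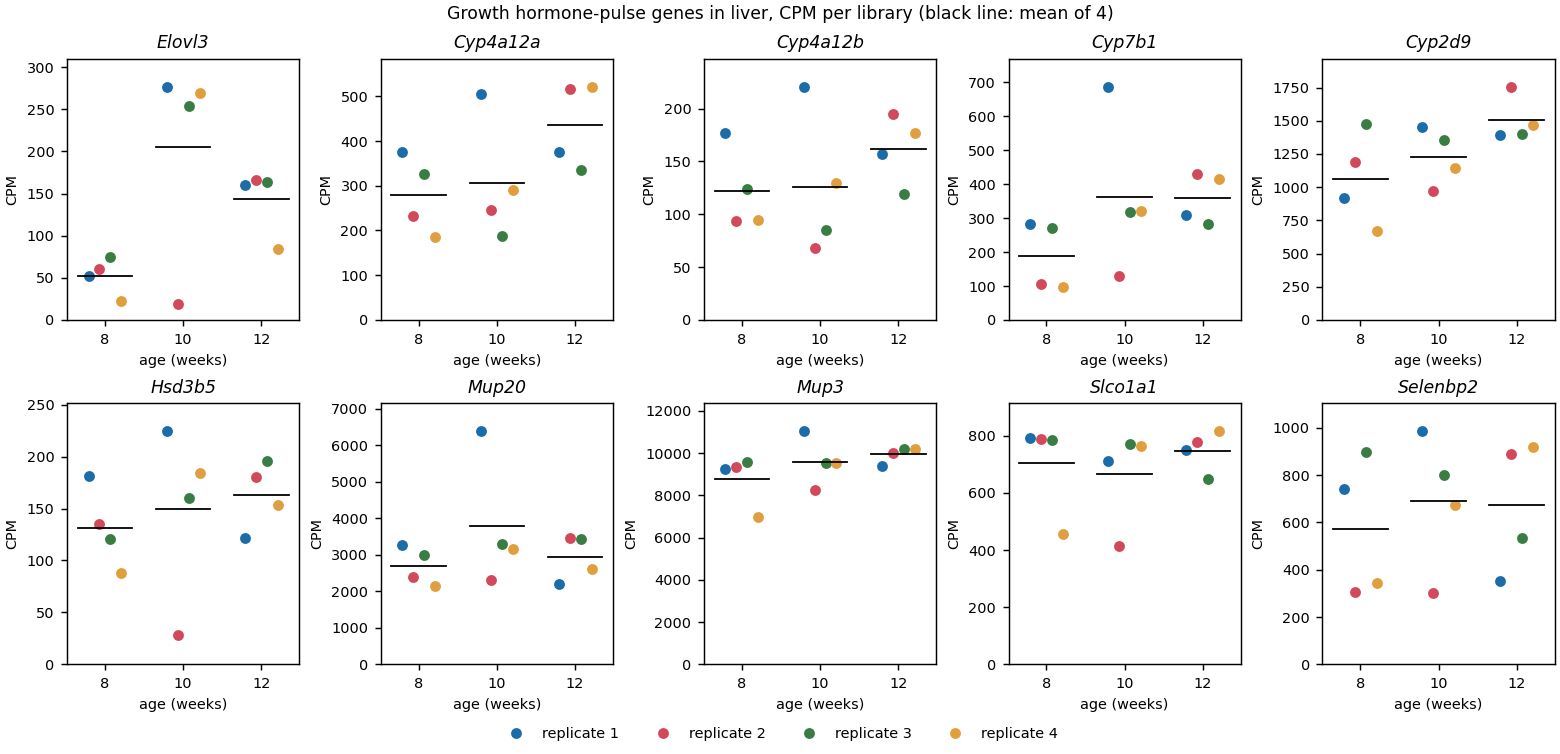
CPM of the 10 genes in each liver library (y axis, starting at 0) by age in weeks (x axis); points are coloured by replicate and black lines are means of 4 libraries. Elovl3 sits between 22.3 and 75.3 CPM at 8 weeks and between 84.1 and 166 CPM at 12 weeks, and replicate 2 at 10 weeks is the lowest of its age in 9 of the 10 panels.

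The genes of fatty acid metabolism were led by Elovl3, an enzyme that lengthens saturated and monounsaturated very long chain fatty acids. At 8 weeks Elovl3 was at 52.4, 60.9, 75.3 and 22.3 CPM. At 10 weeks it was at 276, 18.4, 254 and 269.8 CPM, and at 12 weeks at 160.0, 166, 164 and 84.1 CPM. The other three 10-week libraries and all 12-week libraries were above every 8-week library, while 10-week replicate 2 was below all 4 of them. The mean rose from 52.7 ± 22.3 CPM (SD, n = 4) at 8 weeks to 205 ± 125 CPM at 10 weeks and was 144 ± 39.8 CPM at 12 weeks. The log2 fold change was 1.96 ± 0.60 (SE) from 8 to 10 weeks (adjusted p = 0.187, edgeR) and 1.45 ± 0.60 from 8 to 12 weeks (adjusted p = 0.283). Without 10-week replicate 2 the first of these became 2.34 with an adjusted p of 0.0109 (edgeR). With no filter on low counts it was 1.98 with an adjusted p of 0.0023, and 350 genes in all were called in place of 3. Over 23 settings it ran from 1.505 to 2.34, with an adjusted p of 0.0023 to 0.380 by edgeR, DESeq2 or limma-voom.

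Cyp4a12a and Cyp4a12b hydroxylate the ends of fatty acids, arachidonic acid among them. Cyp4a12a was at 375, 233, 326 and 186 CPM at 8 weeks, 505, 246, 187 and 290.2 CPM at 10 weeks and 376, 516, 335 and 521 CPM at 12 weeks. The ages overlapped, and the log2 fold change from 8 to 12 weeks was 0.64 ± 0.29 (adjusted p = 0.320, edgeR). Cyp4a12b was at 177, 93.7, 124 and 94.7 CPM at 8 weeks, 220.3, 68.5, 85 and 129.7 CPM at 10 weeks and 157, 195, 119 and 177 CPM at 12 weeks, a difference from 8 to 12 weeks of 0.41 ± 0.32 (adjusted p = 0.584). Both copies had their highest 10-week value in replicate 1, which was the highest of its age for 9 of the 10 genes.

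Among the enzymes of sterols and steroids, Cyp7b1 hydroxylates oxysterols on the alternative route to bile acids. It was at 283, 105, 269.8 and 96 CPM at 8 weeks, 686, 128, 319.5 and 320.0 CPM at 10 weeks and 310.0, 429, 284 and 414 CPM at 12 weeks. Every 12-week library lay above every 8-week library, by a margin of 284 against 283 CPM at the nearest pair. The log2 fold change was 0.95 ± 0.45 from 8 to 10 weeks (adjusted p = 0.361) and 0.93 ± 0.45 from 8 to 12 weeks (adjusted p = 0.350, edgeR).

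Cyp2d9, a steroid hydroxylase of the male liver, was at 916, 1191, 1473 and 669 CPM at 8 weeks. It was at 1449, 973, 1356 and 1141 CPM at 10 weeks and 1389.9, 1754, 1401 and 1470.1 CPM at 12 weeks. The 12-week values were close together and the 8-week values far apart, so that 8-week replicate 3 lay above 3 of the 12-week libraries. The log2 fold change from 8 to 12 weeks was 0.50 ± 0.21 (adjusted p = 0.280, edgeR).

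Hsd3b5, a ketosteroid reductase of its family, was at 182, 135, 121 and 87.7 CPM at 8 weeks, 224, 28.1, 161 and 185 CPM at 10 weeks and 122, 180.5, 196 and 154 CPM at 12 weeks. All ages overlapped, and the value of 28.1 CPM in 10-week replicate 2 stood below the other 11 libraries, whose lowest was 87.7 CPM. The log2 fold change from 8 to 12 weeks was 0.31 ± 0.44 (adjusted p = 0.784, edgeR).

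The major urinary proteins carry pheromones into urine, and Mup20 encodes darcin, the male scent protein. Mup20 was at 3259, 2395, 2998 and 2158 CPM at 8 weeks, 6382, 2313, 3301 and 3157 CPM at 10 weeks and 2214, 3471, 3437 and 2612 CPM at 12 weeks. Only 10-week replicate 1 exceeded 3471 CPM, and the difference from 8 to 12 weeks was 0.12 ± 0.27 on the log2 scale (adjusted p = 0.873, edgeR). Mup3, the most abundant of the 10, was at 9241, 9330.0, 9578 and 6971 CPM at 8 weeks. It was at 11029.9, 8245, 9534 and 9528 CPM at 10 weeks and 9412, 9999.6, 10182 and 10186 CPM at 12 weeks. Its log2 fold change from 8 to 12 weeks was 0.18 ± 0.12 (adjusted p = 0.515), and its spread was the smallest of the 10.

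Slco1a1 encodes an uptake transporter for organic anions, steroid conjugates and bile acids. It was at 792, 789, 786 and 457 CPM at 8 weeks, 712, 415, 772 and 764 CPM at 10 weeks and 749.9, 778, 649 and 815 CPM at 12 weeks. The medians of the ages were 788, 738 and 764 CPM, and 8-week replicate 4 and 10-week replicate 2 were the only libraries below 649 CPM. Selenbp2, a selenium-binding protein of the liver cytosol, was at 741, 308, 898 and 346 CPM at 8 weeks, 985, 304, 802 and 674 CPM at 10 weeks and 351, 887, 535 and 917 CPM at 12 weeks. Each age held libraries at 351 CPM or less and libraries at 887 CPM or more, and the log2 fold change from 8 to 12 weeks was 0.23 ± 0.42 (adjusted p = 0.836, edgeR).

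**Figure D2:**
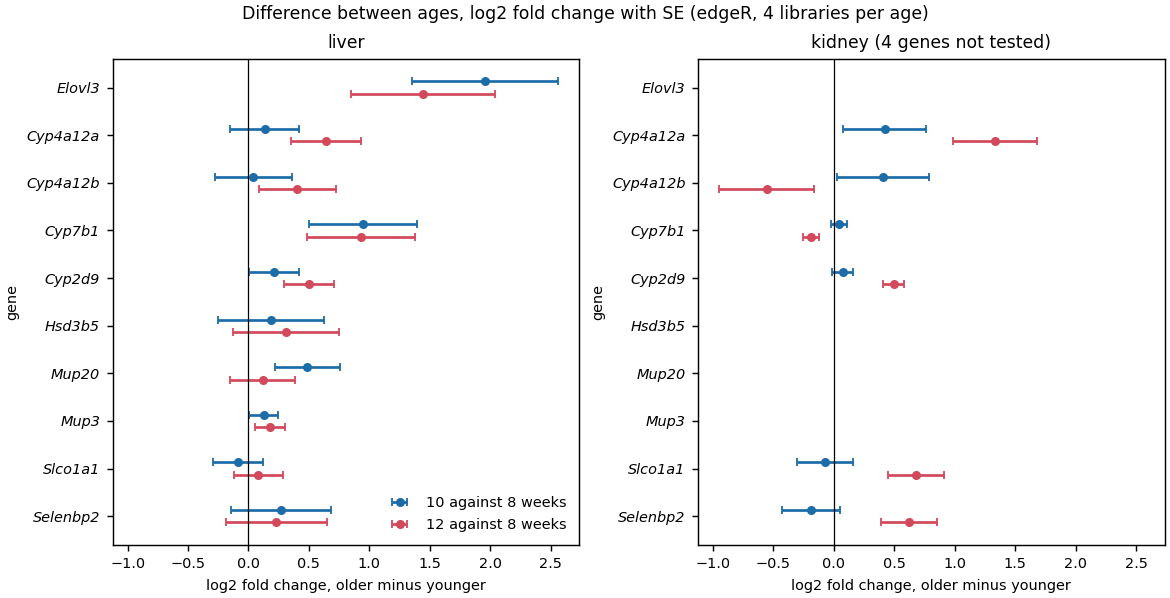
Log2 fold change against 8 weeks (x axis) with its SE (bars) for each gene (y axis) in liver and kidney, from edgeR with 4 libraries per age. In liver all 10 estimates for 12 weeks lie above 0, from 0.08 to 1.45, and in kidney 4 of the 6 tested genes do.

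Against the whole table, edgeR called 0 of the 10 genes and 0.0204% of all genes from 8 to 10 weeks, 0 and 0.239% from 8 to 12 weeks, and 0 and 0.0545% from 10 to 12 weeks. At an unadjusted p under 0.05 the counts were 1 (Elovl3) beside 14.3% of all genes, 3 (Elovl3, Cyp4a12a and Cyp2d9) beside 15.1%, and 0 beside 14.1%. DESeq2 called none of the 10 in the same comparisons, beside 2.52%, 2.89% and 3.58% of all genes. limma-voom called none either, beside 0.0204%, 0.232% and 0.075%. Libraries of the ages did not overlap for 0 genes from 8 to 10 weeks (9.55% of all genes), for 2 genes, Elovl3 and Cyp7b1, from 8 to 12 weeks (8.14%), and for 0 from 10 to 12 weeks (8.23%). With both 8-week replicate 4 and 10-week replicate 2 left out, a choice made after the levels were seen, edgeR called Elovl3 from 8 to 10 weeks (log2 fold change 2.09, adjusted p = 0.00768) and from 8 to 12 weeks (1.20, adjusted p = 0.0329), and 57 and 108 genes in all in place of 3 and 35.

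Most of the genes were low in the same livers. 8-week replicate 4 was the lowest of its age for 8 of the 10 genes and 10-week replicate 2 for 9 of the 10. The exceptions were Cyp4a12b and Selenbp2 in the first, where 8-week replicate 2 was lower, and Cyp4a12a in the second, where 10-week replicate 3 was lower. Each of the pair was among the lowest 3 of all 12 liver libraries for 9 of the 10 genes. At 12 weeks no library was the lowest for more than 5 genes.

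Log2 CPM of the 45 pairs of these genes over the 12 liver libraries gave Pearson r from 0.34 to 0.90, with a median of 0.65, and Spearman rho from 0.02 to 0.87, with a median of 0.62. By a permutation test with 100000 resamples, 28 of the 45 pairs by Pearson r and 19 by Spearman rho had a p under 0.05 after Benjamini-Hochberg adjustment over the 45 pairs. The share among pairs of other liver genes was not computed, so whether these counts are particular to the 10 genes was not tested. After subtracting the mean of each age, r ran from 0.27 to 0.92. With the 2 libraries farthest from the median of the first gene left out, r ran from -0.49 to 0.93 with a median of 0.54, and without 8-week replicate 4 and 10-week replicate 2 the median was 0.42, with 36 of the 45 above 0. Of the 9 pairs below 0, 7 were those of Slco1a1, at -0.49 with Elovl3 and -0.48 with Mup3. The relation thus rested in part on those libraries. The points share their libraries, their scaling and, for Mup20 and the Cyp4a12 genes, close copies.

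The SD of log2 CPM within an age was 1.23 for Elovl3, 0.86 for Hsd3b5, 0.77 for Cyp7b1 and 0.73 for Selenbp2. It was 0.53 for Cyp4a12b, 0.48 for Cyp4a12a, 0.43 for Mup20, 0.35 for Slco1a1 and 0.33 for Cyp2d9. The median over 7463 liver genes with a mean of at least 10 CPM was 0.16, and Mup3 equalled it at 0.16. In these terms Elovl3 lay above 99.6% of those genes, and Slco1a1 and Cyp2d9 above 88.9% and 88.1%.

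**Figure D3:**
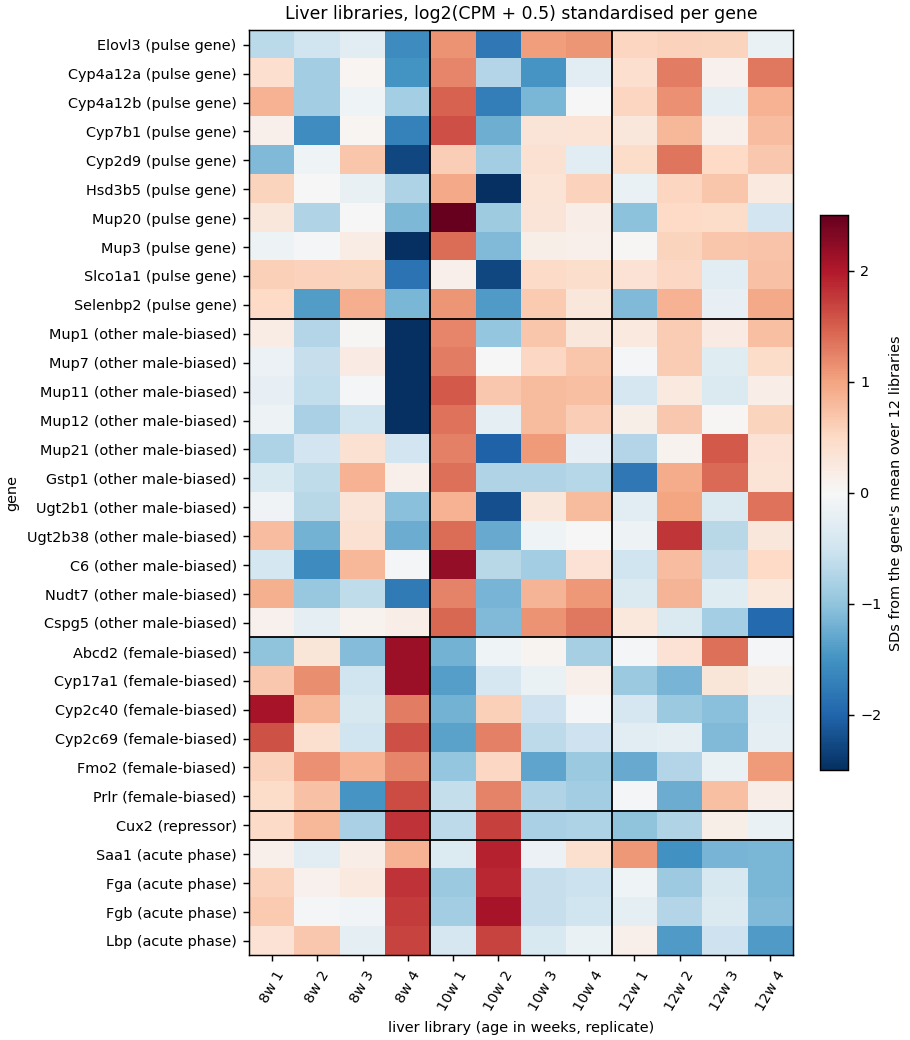
Each row is a gene and each column a liver library (age in weeks, replicate); colour is log2(CPM + 0.5) in SDs from the mean of the gene over 12 libraries. Rows below the 10 genes are other male-biased, female-biased, repressor and acute-phase genes, the last chosen after their values were seen. The columns for 8-week replicate 4 and 10-week replicate 2 are blue for most of the 10 genes at the top and red for Cux2, where they hold 26.7 and 23.0 CPM against 6.36 CPM or less elsewhere.

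Genes of growth hormone signalling did not pass the test either. Of 14 listed and tested genes, 12 were higher at 12 than at 8 weeks in liver, with a median log2 fold change of 0.42, and none was called in any of the 3 comparisons by edgeR, although 3, 3 and 0 had an unadjusted p under 0.05 from 8 to 10, 8 to 12 and 10 to 12 weeks. Stat5b, the transducer of the pulse, was at 56, 54.3, 51.5 and 35.1 CPM at 8 weeks, 64.3, 64.8, 66.3 and 62.9 CPM at 10 weeks and 72.3, 57.8, 44.6 and 42.4 CPM at 12 weeks. It was higher in every 10-week than in every 8-week library (log2 fold change 0.39 ± 0.17, adjusted p = 0.318), and at 12 weeks the values overlapped those of both other ages.

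Socs2 and Cish, feedback inhibitors that STAT5 induces soon after a pulse, varied several-fold between mice of an age. Socs2 was at 18.4, 18.4, 4.56 and 20.2 CPM at 8 weeks, 23.7, 26.2, 1.7 and 25.5 CPM at 10 weeks and 23, 38.1, 24.4 and 27.7 CPM at 12 weeks, so that the low values were in 8-week replicate 3 and 10-week replicate 3. Cish was at 11.5, 5.71, 5.38 and 12.2 CPM, 1.98, 15.1, 0.486 and 27.7 CPM and 25.5, 32.7, 4.06 and 13.2 CPM at these ages. Both were low in 10-week replicate 3, a library in which Elovl3 was at 254 CPM. Igf1, the circulating growth factor made under growth hormone, was at 679, 636, 615 and 669 CPM at 8 weeks, 577, 545, 543 and 601 CPM at 10 weeks and 478, 623, 614 and 782 CPM at 12 weeks, with a difference from 8 to 12 weeks of -0.06 ± 0.12 on the log2 scale (adjusted p = 0.862, edgeR).

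Cux2, which in females lowers male-biased genes, was at 3.71, 6.36, 0.192 and 26.7 CPM at 8 weeks, 0.364, 23, 0.203 and 0.247 CPM at 10 weeks and 0.0344, 0.258, 2.19 and 1.22 CPM at 12 weeks. Its highest values, 26.7 and 23.0 CPM, were in 8-week replicate 4 and 10-week replicate 2, the libraries that were lowest for most of the 10 genes. Bcl6, which in males lowers female-biased genes, was at 6.39, 42.6, 19.4 and 3.92 CPM at 8 weeks, 56.4, 7.88, 62.6 and 7.77 CPM at 10 weeks and 27.1, 14.6, 55.7 and 3.7 CPM at 12 weeks, and overlapped between all ages.

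The 11 other male-biased liver genes listed, 5 of them Mup genes, were also all tested in liver. From 8 to 12 weeks 10 were higher and 1 lower, with a median log2 fold change of 0.40, and none was called by edgeR in any comparison, with 3, 1 and 2 at an unadjusted p under 0.05 from 8 to 10, 8 to 12 and 10 to 12 weeks. Their summed level was lowest, at 3118 CPM, in 8-week replicate 4, and highest, at 8634 CPM, in 10-week replicate 1. In 10-week replicate 2 it was 4293 CPM, the lowest of its age. One of the list, Mup7, was at 262 CPM in 8-week replicate 4 and between 1025 and 3302 CPM in the other 11 libraries.

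Of the 21 female-biased liver genes listed, 11 passed the filter and 10 were too low. From 8 to 12 weeks 2 were higher and 9 lower, with a median of -0.95, and none was called by edgeR in any comparison, with 6, 5 and 1 at an unadjusted p under 0.05 in the same order. Their summed level was 187 to 478 CPM at 8 weeks, 120 to 297 CPM at 10 weeks and 125 to 263 CPM at 12 weeks, with the highest value of the first 2 ages in 8-week replicate 4 and 10-week replicate 2. Cyp2a4, a steroid hydroxylase of the female liver, was at 19.0 CPM in 8-week replicate 4 and at 0.8 CPM or less in each of the other 11 libraries. Of the defining female genes, Cyp2b13 was at 0 in all 12 libraries, and Cyp3a16, Cyp3a41a and Cyp3a41b were each at 0 in 11 and at 0.048 CPM or less in the other.

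Clock genes were examined because liver Elovl3 follows the time of day, and the hour at which the mice were killed is not given in the sources used here. Of 12 listed, 11 were tested and none was called by edgeR in liver, with 8, 3 and 4 at an unadjusted p under 0.05 from 8 to 10, 8 to 12 and 10 to 12 weeks. Bmal1, the activator of the clock, was at 1.2, 1.33, 1.78 and 0.907 CPM at 8 weeks, 6.95, 1.3, 7.42 and 4.38 CPM at 10 weeks and 1.55, 1.37, 1.28 and 1.45 CPM at 12 weeks. The 3 high values were in 10-week replicates 1, 3 and 4, the same libraries in which Elovl3 exceeded 250 CPM. At 12 weeks Bmal1 lay within its 8-week range, while Elovl3 was above every 8-week library.

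Nr1d1, a repressor in the clock, was at 55.4, 35.6, 24.8 and 20.4 CPM at 8 weeks, 105, 43.9, 117 and 83.6 CPM at 10 weeks and 131, 86.9, 80.9 and 19.2 CPM at 12 weeks. Its lowest values of each age, 20.4, 43.9 and 19.2 CPM, were in 8-week replicate 4, 10-week replicate 2 and 12-week replicate 4, and Elovl3 also had its lowest value of each age there. Dbp, an output of the clock, was at 117, 95.6, 47.2 and 77.5 CPM, 56.7, 60.7, 93.4 and 89.8 CPM and 97.1, 155, 163 and 72.2 CPM at the 3 ages. Dbp was lowest in 8-week replicate 3 and 10-week replicate 1, where Elovl3 was the highest of its age. At 12 weeks both were lowest in replicate 4. The part of clock phase in the levels of the 10 genes was not tested.

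The androgen list had 6 genes, of which 5 were tested in liver and none was called by edgeR, with 2, 2 and 3 at an unadjusted p under 0.05. Among the 14 close copies of the 10 genes, 11 were tested, none was called, and 3, 1 and 2 had an unadjusted p under 0.05. Markers of other liver cells did not pass the test either. The 4 Kupffer and myeloid markers were higher in every 10-week than in every 8-week library and lower in every 12-week than in every 10-week library, an absence of overlap seen for 9.55% and 8.23% of all genes, and their adjusted p was 0.144 to 0.210 and 0.072 to 0.076 (edgeR). They had a summed level of 85.8 to 188 CPM at 8 weeks, 219 to 334 CPM at 10 weeks and 122 to 134 CPM at 12 weeks.

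The summed level of the 4 liver endothelial markers was 108 to 169 CPM at 8 weeks, 118 to 151 CPM at 10 weeks and 66.2 to 82.5 CPM at 12 weeks. That of the 6 hepatocyte markers was 91362 to 123191, 69361 to 88463 and 85098 to 112225 CPM. Of the hepatocyte markers Apoa2, named after its value was seen, was called from 8 to 12 weeks (log2 fold change 0.49 ± 0.09, adjusted p = 0.0449, edgeR). No other gene of the marker lists was called in liver. Of the other hepatocyte markers, Serpina1a was higher at 12 weeks (0.15), and Alb (-0.053), Apoa1 (-0.025), Cps1 (-0.28) and Tat (-0.86) were lower. The part of these cells in the levels of the 10 genes was not tested, and in bulk tissue fewer cells of a type and less RNA per cell cannot be told apart. The 4 lymphocyte markers summed to 13.8 CPM or less, with Cd79a at 0.243 CPM or less, the 4 stellate and fibroblast markers to 115 to 253 CPM, the 4 cholangiocyte markers to 3.59 to 10.6 CPM and the 3 proliferation markers to 0.816 to 4.03 CPM.

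The liver genes most like the 10 were sought by the Pearson r of their log2 CPM, over 12 libraries, with the mean standardised level of the 10, among 7463 genes with at least 10 CPM on average. They were Hes6 (r = 0.92), Ola1 (0.91), Aadat (0.91), Mup1 (0.91) and Cyp2f2 (0.89). Hes6, a transcription factor, was at 83.4, 62.1, 76.9 and 46.4 CPM at 8 weeks, 106, 44.7, 98.8 and 74.5 CPM at 10 weeks and 62.4, 95.8, 76.3 and 78.1 CPM at 12 weeks. Mup1 was at 13.5, 5.74, 11.7 and 0.812 CPM, 34.3, 4.62, 21.3 and 14.8 CPM and 14.1, 20.2, 13.7 and 22.3 CPM, with its lowest value in 8-week replicate 4. These r are a description over libraries that share their scaling, 8-week replicate 4 and 10-week replicate 2 among them, and carry no test.

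In kidney 6 of the 10 genes passed the filter, and none was called by edgeR. The median log2 fold change of the 6 was 0.56 from 8 to 12 weeks and 0.59 from 10 to 12 weeks, against 0.0025 and -0.00088 over all 17649 genes tested, and 4 of the 6 were higher in each. The 6 genes share their libraries and are not separate observations. Cyp2d9, Cyp4a12a, Slco1a1 and Selenbp2 were higher, and Cyp7b1 and Cyp4a12b lower, at 12 weeks. Elovl3, Hsd3b5, Mup20 and Mup3 were at 0.966 CPM or less in every kidney library, with 24 counted pairs or fewer.

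**Figure D4:**
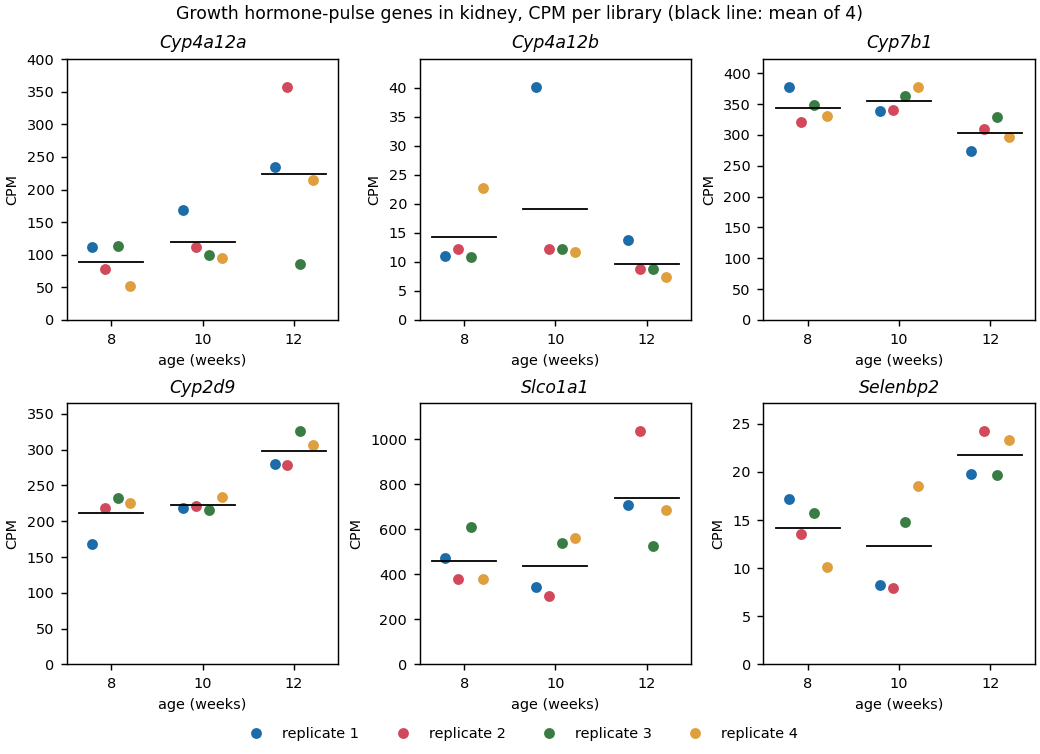
CPM of the 6 genes tested in kidney in each library (y axis, starting at 0) by age in weeks (x axis); points are coloured by replicate and black lines are means of 4 libraries. The 4 Cyp2d9 points at 12 weeks, from 279 to 326 CPM, lie above all 8 points of the younger ages.

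Cyp2d9 in kidney was at 169, 219, 233 and 225 CPM at 8 weeks, 219, 222, 216 and 234 CPM at 10 weeks and 279.6, 279, 326 and 307 CPM at 12 weeks. All 12-week libraries were above all younger ones. The log2 fold change was 0.49 ± 0.09 from 8 to 12 weeks (adjusted p = 0.0883, edgeR) and 0.42 ± 0.09 from 10 to 12 weeks (adjusted p = 0.0533). Its close copy Cyp2d12, named after its value was seen, was called from 8 to 12 weeks in kidney (1.19 ± 0.15, adjusted p = 0.00611). The only other gene of the growth hormone, sex-biased, androgen, clock and close copy lists called in kidney was Cyp4b1, an androgen-responsive gene also named after its value was seen, from 10 to 12 weeks (0.56 ± 0.11, adjusted p = 0.0385).

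Cyp4a12a in kidney was at 112, 77.9, 114 and 51.8 CPM at 8 weeks, 169, 113, 99.2 and 94.7 CPM at 10 weeks and 235, 357, 86.1 and 215 CPM at 12 weeks. Replicates 1, 2 and 4 at 12 weeks were above all other libraries, and the log2 fold change from 8 to 12 weeks was 1.33 ± 0.35 (adjusted p = 0.215, edgeR). Cyp4a12b was at 11, 12.2, 10.9 and 22.7 CPM, 40.1, 12.2, 12.3 and 11.7 CPM and 13.8, 8.8, 8.75 and 7.38 CPM, a difference of -0.56 ± 0.39 from 8 to 12 weeks (adjusted p = 0.624). From 8 to 12 weeks the 2 copies thus had opposite signs in kidney and the same sign in liver. From 8 to 10 weeks both were higher in kidney, by 0.42 ± 0.34 for Cyp4a12a and 0.41 ± 0.38 for Cyp4a12b. Of the windows of Cyp4a12b, 25.9% could not be told from Cyp4a12a.

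Slco1a1 in kidney was at 472, 380.1, 612 and 379 CPM at 8 weeks, 342, 302, 541 and 564 CPM at 10 weeks and 711, 1036, 525 and 686 CPM at 12 weeks, with a log2 fold change from 8 to 12 weeks of 0.68 ± 0.23 (adjusted p = 0.311, edgeR). Selenbp2 was far lower than in liver, at 17.2, 13.6, 15.8 and 10.1 CPM, 8.23, 7.89, 14.8 and 18.5 CPM and 19.8, 24.2, 19.6 and 23.3 CPM. All its 12-week values were above all younger ones, and the difference from 8 to 12 weeks was 0.62 ± 0.23 (adjusted p = 0.339). Cyp7b1 was at 377, 320.2, 348 and 331 CPM at 8 weeks, 339, 340.3, 362 and 378 CPM at 10 weeks and 274, 309, 329.9 and 296 CPM at 12 weeks, with every 12-week value below every 10-week value (log2 fold change -0.23 ± 0.07, adjusted p = 0.113).

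Against all kidney genes, edgeR called 0 of the 6 beside 0.929% from 8 to 10 weeks, 0.0567% from 8 to 12 weeks and 0.482% from 10 to 12 weeks. At an unadjusted p under 0.05 there were 0, 5 and 6 of the 6, beside 16.5%, 11.7% and 16.4% of all genes. DESeq2 called 0, 1 (Cyp2d9) and 2 (Cyp2d9 and Cyp7b1), beside 4.46%, 0.898% and 4.98%, and limma-voom called 0 in each, beside 0.992%, 0.0567% and 0.47%. Libraries did not overlap for 0, 2 and 3 of the 6, beside 9.09%, 6.61% and 8.93%. The comparisons from 8 to 12 and from 10 to 12 weeks share the 12-week libraries, and the 6 genes share all libraries. The counts are therefore not of separate observations.

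Whether the change with age differed between liver and kidney was tested in a single edgeR fit of both tissues. The tissues may come from the same mice, which the fit treats as separate. Elovl3, Hsd3b5, Mup20 and Mup3 are left out of this account because kidney held almost no reads of them. Of the 6 genes tested in each tissue, none was called by edgeR, beside 0.0161% of all genes from 8 to 10 weeks and 0.075% from 8 to 12 weeks. At an unadjusted p under 0.05 there were 0 and 1 (Cyp7b1). The share of all genes under that value was not computed for this fit. Whether 1 of the 6 exceeds that share was therefore not tested. Cyp7b1 ranked 1425 among all 18661 genes of the fit from 8 to 12 weeks. The largest difference among these 6 from 8 to 12 weeks was that of Cyp7b1, whose change was 1.13 ± 0.48 higher in liver on the log2 scale (adjusted p = 0.372, edgeR). For Cyp4a12b it was 0.97 ± 0.54 higher (adjusted p = 0.528), for Cyp4a12a -0.67 ± 0.49 (adjusted p = 0.655), and for Slco1a1 -0.59 ± 0.34 (adjusted p = 0.540). For Cyp2d9 the difference was 0.017 ± 0.24, an error that leaves room for unequal changes.

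Per kilobase of the canonical transcript, mean liver levels over 12 libraries ran from Mup3, at 8978 CPM per kb, and Mup20, at 3385, through Cyp2d9, at 739, Selenbp2, at 376, Slco1a1, at 178, and Cyp4a12a, at 141 CPM per kb. Hsd3b5 was at 94.9, Elovl3 at 70.7, Cyp4a12b at 57.1 and Cyp7b1 at 27.3 CPM per kb, the last with a transcript of 11.1 kb. In kidney the order was Cyp2d9, at 142, Slco1a1, at 138, Cyp4a12a, at 59.3, Cyp7b1, at 30.1, Selenbp2, at 9.36, and Cyp4a12b, at 5.98 CPM per kb. The CPM of Cyp7b1 were 274 to 378 in kidney, within the 96.0 to 686 CPM of liver. Selenbp2 was at 304 CPM or more in every liver library and at 24.2 CPM or less in every kidney library. CPM were scaled within each tissue, so the tissues are not on a common scale. In the fit of both tissues the TMM factors ran from 0.703 to 1.37.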

How the data were processed

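Per the labels, polyA RNA of 36 libraries was sequenced as read pairs, trimmed with cutadapt 4.2, checked with FastQC 0.11.9 and aligned to GRCm39 with STAR 2.7.11b, whose gene counting was used by the authors. The deposited values are raw counts of uniquely mapped read pairs per Ensembl gene ID. The unstranded count was used here; the first-strand setting held 49.8% to 50.2% of pairs assigned by strand, so overlapping antisense genes cannot be told apart. Ambiguous pairs, 8.19% to 8.95% in liver, and multimapping pairs, 6.26% to 7.04%, are not counted, which lowers genes with close copies. Of 78239 IDs, 78168 had a name in GENCODE vM39.

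Each tissue was fitted with edgeR 4.0.16 (R 4.3.3), the quasi-likelihood test on TMM-scaled counts with age as the only term, all 3 ages together. A gene was kept where at least 1 age had 2 or more libraries above 0 and a mean of at least 10 counts. This left 14672 genes in liver, 17649 in kidney and 18661 in the fit of both. SE is the log2 fold change divided by the root of F. limma-voom (limma 3.58.1), DESeq2 1.42.0, no filter or edgeR's own, RLE scaling, library sizes without the 10 genes and all Mup genes, first-strand counts, 2 ages only, a replicate block and each library left out were alternatives. The labels call the libraries biological replicates; p-values measure the spread between them.

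The 10 genes and the lists were chosen with earlier results of these data known. Genes described with values were the 10 genes, Cux2, Stat5b, Socs2, Cish, Igf1, Bcl6, Nr1d1, Dbp and Bmal1, list genes called in liver, and the 5 genes most like the 10. Others, Mup7, Cyp2a4, the low female genes, marker genes, Ugt2b1, Nudt7 and the acute-phase genes among them, were chosen after their values were seen.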

Additional observations from a re-analysis of the deposited data

Results flagged for a closer look

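Within the 4 libraries of a tissue and age, a library stood far from the other 3 by Dixon's gap in 7 of 48 groups examined, where chance gives about 1 in 20. In liver these were Elovl3 at 18.4 CPM in 10-week replicate 2 and at 84.1 CPM in 12-week replicate 4, Mup3 at 6971 CPM in 8-week replicate 4, and Slco1a1 at 457 CPM in 8-week replicate 4 and 415 CPM in 10-week replicate 2. All 5 liver values were the lowest of their age. In kidney they were Cyp4a12b at 22.7 CPM in 8-week replicate 4 and at 40.1 CPM in 10-week replicate 1, both the highest of their age. The 48 groups are genes of the same libraries and many of the genes vary together, so they are not 48 separate trials. The 7 can therefore not be weighed against 1 in 20.

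Heart, which entered no comparison above, held a few read pairs of most of the 10 genes, above the 3 pairs that a count of 0 allows. In the heart library of 10 weeks, replicate 4, Mup3 had 99 counted pairs (4.06 CPM), Mup20 had 30, Elovl3, Cyp4a12a, Hsd3b5 and Selenbp2 had 5 each, and Slco1a1 had 4. Cyp2d9 was highest, at 11 pairs, in 10-week replicate 2. Cyp7b1, which kidney also held, was at 11 to 29 pairs in all 12 heart libraries. It was highest, at 29 pairs (1.01 CPM), in 12-week replicate 2. Heart libraries also held pairs of the hepatocyte markers, at most 368 of Alb, 68 of Apoa1, 35 of Serpina1a, 34 of Tat, 21 of Cps1 and 3 of Apoa2. The source of the pairs was not tested.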

How the results depend on the processing

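Of the values of the 10 genes under alternative settings, 980 kept their direction and side of the threshold, 34 changed direction and 24 passed the threshold only under the alternative. In liver, Elovl3 was the 1 gene called from 8 to 10 weeks and from 8 to 12 weeks with no filter, and the 1 called in each without both 8-week replicate 4 and 10-week replicate 2, an alternative chosen after seeing the data. Leaving out single libraries gave 0 to 1 calls from 8 to 10 weeks and 0 to 0 from 8 to 12 weeks. In kidney DESeq2 called 1 and no filter 4 of the 10 from 8 to 12 weeks, and from 10 to 12 weeks DESeq2 called 2, no filter 6, a fit of 2 ages only 1, and single libraries left out 0 to 2. For the difference between tissues from 8 to 12 weeks this range was 0 to 1, Mup3 being called without liver 12-week replicate 4 on kidney counts of 0 at 8 weeks and 1 to 4 pairs at 12 weeks, too few to compare. The cause of these moves was not tested. Over all genes the counts from 8 to 10, 8 to 12 and 10 to 12 weeks were 361, 423 and 483 by DESeq2 and 350, 330 and 271 with no filter in liver, and 680, 137 and 657 and 1005, 513 and 938 in kidney.

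Replicate numbers were not taken as pairs: deviations from the age means of libraries with the same number correlated at -0.303 to 0.225 in liver, -0.197 to 0.156 in kidney, and 0.0577 to 0.287 between liver and kidney of the same age. With the replicate block, 1 gene (Cyp2d9) was called in kidney from 10 to 12 weeks, and the signs of Cyp4a12b from 8 to 10 weeks (-0.033), Cyp7b1 (0.26) and Selenbp2 (0.12) from 10 to 12 weeks changed in liver. In the fit of both tissues the block of a shared number called 0 of the 10 genes, and 5 and 26 genes in all from 8 to 10 and 8 to 12 weeks in place of 3 and 14; DESeq2 called 80 and 251, limma-voom 3 and 28, and no filter 104 and 193.

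Other liver log2 fold changes near 0 changed sign. By limma-voom these were Cyp4a12b (-0.056) and Hsd3b5 (-0.12) from 8 to 10 weeks and Elovl3 (0.012) and Cyp7b1 (0.19) from 10 to 12 weeks. Without both low libraries they were Hsd3b5 (-0.21) and Mup3 (-0.0069) from 10 to 12 weeks and Slco1a1 (-0.067) from 8 to 12 weeks. With single libraries left out the ranges that crossed 0 were, from 8 to 10 weeks, -0.22 to 0.31 for Cyp4a12a, -0.37 to 0.27 for Cyp4a12b, -0.079 to 0.53 for Hsd3b5 and -0.24 to 0.085 for Slco1a1. From 10 to 12 weeks they were -0.30 to 0.49 for Cyp7b1, -0.22 to 0.39 for Hsd3b5, -0.54 to 0.0058 for Mup20, -0.012 to 0.13 for Mup3, -0.0021 to 0.25 for Slco1a1 and -0.29 to 0.18 for Selenbp2. From 8 to 12 weeks it was -0.076 to 0.14 for Slco1a1, and in kidney from 8 to 10 weeks -0.24 to 0.73 for Cyp4a12b, -0.019 to 0.12 for Cyp2d9 and -0.22 to 0.090 for Slco1a1.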

Other observations

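Some plasma proteins of the acute phase, which hepatocytes raise in inflammation, were highest in the livers where most of the 10 genes were lowest. Among 7463 liver genes, the 5 with the most negative Pearson r of log2 CPM with the mean standardised level of the 10 were Fga (r = -0.91), Fgb (-0.90), Lbp (-0.89), Fgg (-0.89) and B4galnt1 (-0.89), looked up after the levels were seen and given without a test. Fga, a chain of fibrinogen, was at 6819, 5899, 6158 and 9958 CPM at 8 weeks, 4304, 10184, 4808 and 4859.9 CPM at 10 weeks and 5544, 4344, 5056 and 4023 CPM at 12 weeks, with its highest values in 8-week replicate 4 and 10-week replicate 2. Lbp, which binds bacterial lipopolysaccharide, was at 145, 159, 123 and 213 CPM, 116, 212, 117 and 125 CPM and 136, 87.6, 113 and 87.4 CPM. Saa1, a serum amyloid, was at 319.9, 181, 335 and 907 CPM, 163, 4079, 215 and 476 CPM and 1251, 31.3, 51.4 and 52.9 CPM, and Lcn2, which binds siderophores, at 14.4, 24.3, 38.3 and 42.1 CPM, 7.52, 276, 11.5 and 16.5 CPM and 51.9, 2.44, 3.77 and 6.56 CPM. Saa1 was also high, at 1251 CPM, in 12-week replicate 1, where Mup20 and Selenbp2 had their lowest 12-week values, 2214 and 351 CPM. Orm2, an acid glycoprotein of the same response, was at 21.8, 8.97, 16.3 and 10.8 CPM, 15.3, 91.7, 6.16 and 21.8 CPM and 48.8, 5.94, 11.6 and 10.0 CPM, high in 10-week replicate 2 but not in 8-week replicate 4. The part of the acute phase in the levels of the 10 genes was not tested.

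Over the 12 liver libraries, Pearson r of log2(CPM + 0.5) with the mean standardised level of the 10 genes differed among the other male-biased genes. It ran from 0.23 for Cspg5 and 0.44 for Gstp1 to 0.92 for Mup1. For Ugt2b1, a glucuronosyltransferase, it was 0.89, and for Nudt7, a hydrolase of coenzyme A, 0.83. Among the growth hormone signalling genes compared, the same r ran from -0.84 for Cux2 to 0.70 for Ghr. Without both low libraries, r was -0.46 for Cux2 and 0.48 for Ghr. Over all libraries it was 0.63 for Igfals, 0.08 for Igf1, 0.02 for Socs2 and -0.16 for Cish. The Spearman rho of Socs2 was 0.43. These are descriptions over libraries that share their scaling.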
